A study of Mus musculus with 18 samples.

Results

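The genes described here are 10 of the 51290 in the deposited count table: Sox9, Scx, Acan, Comp, Matn2, Fmod, Cilp, Cilp2, Cnmd and Tnmd, which belong to the cartilage and tendon lineages. They were selected on measured values of these same libraries, because Cilp stood out for its high level in malignant peripheral nerve sheath tumour (MPNST) and Cnmd for its peak in neurofibroma. For Cilp and Cnmd the levels are therefore given as a description, with no test. The study compared 3 groups of 6 mouse samples by RNA sequencing of poly(A) RNA. The nerve group was trigeminal nerve labelled as normal, from mice with both Nf1 alleles floxed and no Cre (Nf1 flox/flox PostnCre-). The neurofibroma group was trigeminal nerve labelled as plexiform neurofibroma, from mice with the same floxed Nf1 and a Cre under the Postn promoter (Nf1 flox/flox PostnCre+). The MPNST group came from mice that also had both Arf alleles floxed (Nf1 flox/flox Arf flox/flox PostnCre+), with 1 tumour from each of 6 mice. All 3 groups thus carry floxed Nf1, and the labels give no age, strain, sex or, for the MPNST, body site. The Postn promoter sets which cells lose the floxed genes, and the labels do not name those cells. Nerve and neurofibroma samples were taken over from an earlier series. Malignancy, the floxed Arf alleles and the place of sampling cannot be told apart in any comparison with MPNST.

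SOX9 is the transcription factor that starts and holds the cartilage programme, in which chondrocytes lay down type II collagen and the large proteoglycan aggrecan (Acan). Scleraxis (Scx), a basic helix-loop-helix factor, marks tendon progenitors, whose mature cells make tenomodulin (Tnmd) and bundle type I collagen with small leucine-rich proteoglycans such as fibromodulin (Fmod). Peripheral nerve holds related matrix: SOX9 is also a factor of neural crest and glial precursors, and Matn2 encodes a matrilin made by Schwann cells. Chondromodulin (Cnmd) and tenomodulin are paired membrane proteins whose outer domains restrain blood vessel growth. CILP and CILP2 are secreted matrix proteins named for the intermediate layer of cartilage, and CILP is known to bind TGF-beta.

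The promoters of Cilp and Cnmd are shown because these genes had the largest and opposite differences between the tumour groups. The RefSeq promoter table used here gave the 250 bases before the start for 6 of the 10 genes (Acan, Cilp, Cilp2, Fmod, Tnmd and Cnmd), on build GRCm38.p6. In each sequence, written 5′ to 3′ on the gene's own strand, the capitals mark matches to CANNTG, the E-box motif read by basic helix-loop-helix factors as a class.
Cilp promoter, chr9:65264930-65265179, plus strand: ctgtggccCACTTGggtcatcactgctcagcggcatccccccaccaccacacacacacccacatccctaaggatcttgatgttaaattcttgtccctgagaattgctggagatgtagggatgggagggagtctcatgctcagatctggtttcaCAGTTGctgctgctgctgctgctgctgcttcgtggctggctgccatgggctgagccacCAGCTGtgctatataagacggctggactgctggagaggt
Cnmd promoter, chr14:79662184-79662433, minus strand: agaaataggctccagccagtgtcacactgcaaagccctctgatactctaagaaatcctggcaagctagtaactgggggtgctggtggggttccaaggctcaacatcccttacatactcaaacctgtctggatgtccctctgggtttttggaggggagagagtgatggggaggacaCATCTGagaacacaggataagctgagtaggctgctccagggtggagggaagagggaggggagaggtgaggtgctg
The Cilp window held 3 E-boxes, beginning 242, 97 and 39 bases before the start, and the Cnmd window held 1, beginning 75 bases before it. CANNTG is its own reverse complement, so both strands are read at once, and 66.2% of 32851 promoters of this length held it. Neither window held AACAAT, a core SOX motif, on either strand, against 9.42% of all promoters. Neither held the exact letters TATAAA on either strand, against 12.4% of all promoters. The Cilp window did hold tatataag, a run close to TATAAA, shortly after its last E-box. The GC content was 56% for Cilp and 54% for Cnmd, beside a median of 52.4% over all promoters. A match is a run of letters and does not show that a factor binds there.

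Libraries held 14303986 to 20335697 estimated counts in the nerve group, 15307987 to 20056513 for neurofibroma and 13886399 to 23652959 for MPNST. No pair of libraries was identical. Nf1 itself ran from 82.4 to 161 CPM (counts in every 1000000 of the library) in nerve, while neurofibroma had 66.7 to 91.3 and MPNST 28.1 to 123; a count over the whole gene does not show whether the floxed part was lost, and the same holds for Arf, which shares its gene, Cdkn2a, with another product. Cdkn2a ran from 0.280 to 3.01 CPM in the nerves and from 3.54 to 8.58 in the neurofibromas; MPNST 4 held 692 CPM, and the other 5 MPNST held 0.314 to 11.3. Several libraries held transcripts of other tissues. In MPNST 2, salivary gland markers summed to 379896 CPM, and MPNST 3 held 33582 CPM of skeletal muscle markers. MPNST 6 held 2485 CPM of pancreatic acinar and 3145 of sympathoadrenal markers. Its sum of 1258 CPM for sensory neuron markers was nearly all Prph (688) and Isl1 (536), which sympathetic neurons also express, while Scn10a and Calca reached at most 1.14 and 2.68 CPM in any MPNST. The sensory neuron list summed to 1511 to 3452 CPM in nerve and 2328 to 3424 in neurofibroma, with a median of 7.91 in MPNST. The part of neurons in the genes found lower in MPNST below was not tested. Skeletal muscle markers reached 1343 CPM in neurofibroma 1 and 341 in nerve 3. In nerve 6 the sympathoadrenal list summed to 171 CPM, nearly all of it Th, with Dbh at most 0.135 CPM in any nerve. Values without these libraries are given beside the results they changed most. In bulk samples fewer cells of a type and less RNA per cell cannot be told apart, and replicates here are separate samples, the MPNST from separate mice and the others not further described in the labels. Unless another tool is named, log2 changes and their standard errors (SE) come from edgeR's quasi-likelihood test with Benjamini-Hochberg adjustment over all genes tested, and a gene is called at an adjusted p below 0.05. The fits scale libraries by TMM (trimmed mean of M values) factors, computed anew from the libraries of each fit. Computed over all 18 libraries, the factor of MPNST 2 was 0.436. Its Sox9, for example, is 59.8 CPM of the library total but 137 on that TMM scale.

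Cartilage and tendon markers were present unevenly. Of 6 chondrocyte markers, Matn1 was at 0 in 4 of 6 nerve, 5 of 6 neurofibroma and 4 of 6 MPNST libraries, and Snorc at 0 in 5, 5 and 4. Col2a1, the type II collagen of cartilage, had a median of 2.96 CPM in nerve, which was 7.74 in neurofibroma and 0.305 in MPNST. It rose from nerve to neurofibroma (log2 change 1.41, SE 0.37, adjusted p = 0.0274) and fell to MPNST (−3.54 against neurofibroma, SE 0.89, adjusted p = 0.00784), and the first of these calls was lost when any of nerve 2, 4 or 5 or neurofibroma 2, 4 or 6 was left out, with adjusted p up to 0.0706. Col2a1 entered the test against MPNST only through its counts in neurofibroma. Hapln1, the link protein that holds aggrecan to hyaluronan and is also made by neurons, ranged from 23.9 to 50.3 CPM in nerve and 17.6 to 34.0 in neurofibroma, but MPNST had only 0.072 to 2.85. Col9a1 had medians of 0.216, 0.505 and 0.142 CPM, with a single high value of 7.81 in MPNST. The 6 chondrocyte markers summed to 29.1 to 53.9 CPM in nerve; neurofibroma had 25.8 to 46.1 and MPNST 0.972 to 9.43, mostly Hapln1 in the trigeminal groups. Of the 4 tenocyte markers, Kera had a median of 0 in nerve, 0.0256 CPM in neurofibroma and 0.157 in MPNST. Mkx, a tendon homeobox factor, had medians of 16.7, 11.2 and 4.09 CPM, and the 4 summed to 20.4 to 30.1, 18.8 to 22.4 and 4.03 to 42.2 CPM. Every marker of both lists had counts in at least 1 library of each group. MPNST 3 held all 4 tenocyte markers at a sum of 31.9 CPM, above every nerve, of which Scx and Tnmd, both among the 10 genes, made 11.02 and 10.8; the genes are treated one by one.

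Among the regulators, Sox9 was scattered in nerve and in MPNST. Its level ran from 3.91 CPM through a median of 7.70 to 32.3 in nerve, and from 7.70 through 17.6 to 19.3 in neurofibroma. In MPNST libraries 1 to 6 it was 21.0, 59.8, 20.6, 57.0, 22.8 and 2.10 CPM. Nerve 6 stood above the other 5 nerves, which reached 10.2 CPM at most, and MPNST 6 was below every other library, so all 3 groups overlapped. The mean was 11.1 ± 10.7 CPM (SD, n = 6) in nerve; neurofibroma had 15.6 ± 4.37 and MPNST 30.5 ± 22.9. None of the 3 differences passed the test: 0.50 for neurofibroma against nerve (SE 0.46, adjusted p = 0.487), 1.75 for MPNST against neurofibroma (SE 0.76, adjusted p = 0.0830) and 2.25 for MPNST against nerve (SE 0.87, adjusted p = 0.0518). Leaving out nerve 6 brought the first to 1.18 (adjusted p = 0.0143) and the last to 2.90 (adjusted p = 0.0237). Leaving out MPNST 6 gave 1.9998 against neurofibroma (adjusted p = 0.0125) and 2.50 against nerve (adjusted p = 0.0124), and leaving out MPNST 2 lowered these differences to 0.66 and 1.15. Without MPNST 2 and 6 together, Sox9 was higher by 0.94 against neurofibroma (adjusted p = 0.0302) and by 1.498 against nerve (adjusted p = 0.0409). The header numbers of the table fall in 2 runs, which no label names as a batch and which hold 3 libraries of each group; against nerve the change was 3.26 within the first (adjusted p = 0.0305) and 0.22 within the second, which holds nerve 6 and MPNST 6 (adjusted p = 0.912). Whether the foreign transcripts in those libraries take part in this was not tested.

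Scx was even across the trigeminal groups and scattered in MPNST. It ran from 6.35 CPM through a median of 8.73 to 13.2 in nerve and from 6.36 through 7.69 to 11.1 in neurofibroma. In MPNST 1 to 6 it was 0.628, 0.592, 11.02, 39.9, 0.072 and 3.56 CPM. Library 4 stood above every nerve and neurofibroma, library 3 lay within their range and the other 4 lay below all of them. The means were nearly equal, 9.28 ± 2.40 in nerve and 9.29 ± 15.5 in MPNST (SD, n = 6), and the fitted change was 0.04 (SE 0.98, adjusted p = 0.974). Against neurofibroma it was 0.24 (SE 0.98, adjusted p = 0.858), and between neurofibroma and nerve −0.18 (SE 0.19, adjusted p = 0.549). Without library 4 the changes were −1.05 against neurofibroma (adjusted p = 0.358) and −1.25 against nerve (adjusted p = 0.272). With limma-voom and sample quality weights, Scx was lower in MPNST by −3.03 against neurofibroma (adjusted p = 0.0105) and −3.19 against nerve (adjusted p = 0.00706).

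**Figure D1:**
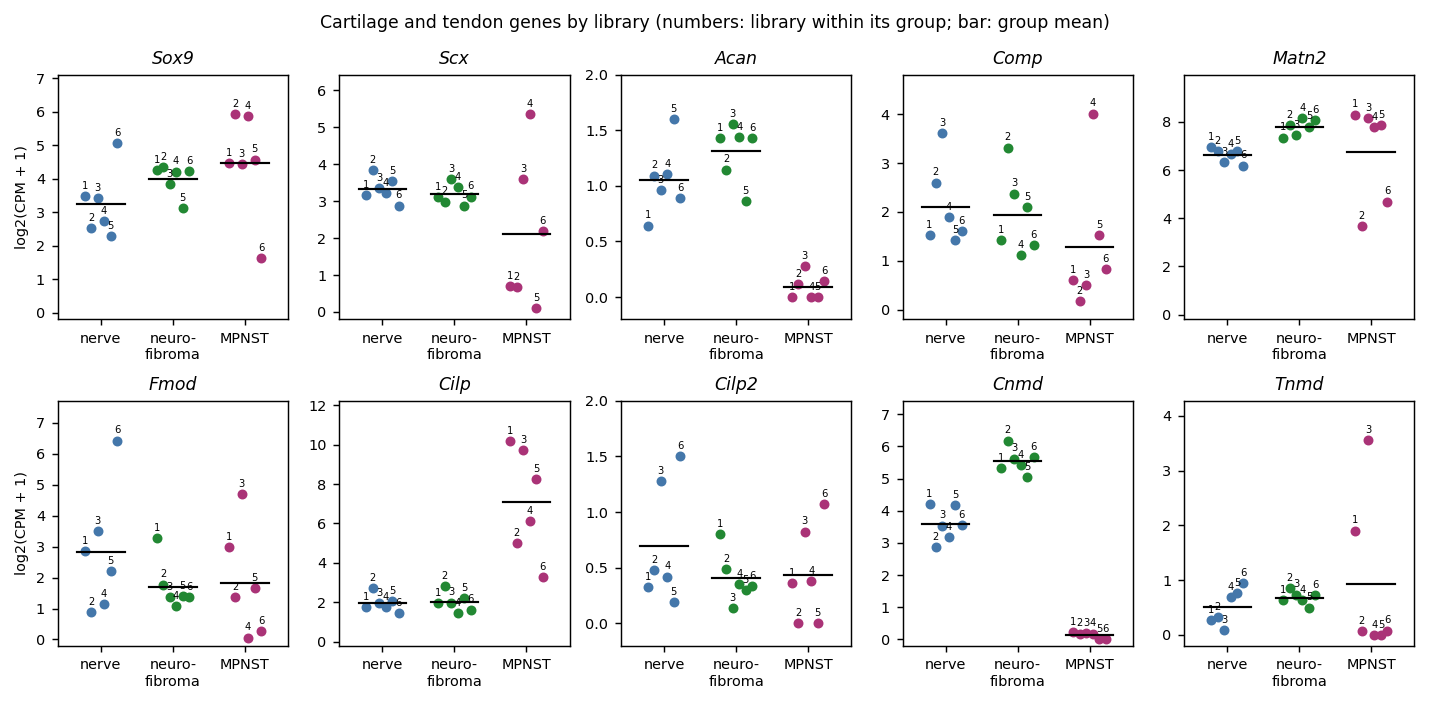
Level of each of the 10 genes in each library, as log2(CPM + 1) on its own vertical scale, for nerve, neurofibroma and MPNST (6 libraries each, numbered within their group; the bar is the group mean of the plotted values). Cilp stands higher in all MPNST libraries than in the other groups, Cnmd and Acan are near 0 in MPNST, and Sox9, Scx, Comp and Fmod each overlap between groups with single libraries far from the rest.

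Among the structural matrix genes, Matn2 rose from nerve to neurofibroma. Its level was 71.6 to 122 CPM in nerve, with a median of 105, and 162 to 286 CPM in neurofibroma, with a median of 228. No neurofibroma overlapped a nerve, which over all 16464 genes tested held for 3.91% in the higher direction. The means were 98.9 ± 19.3 and 224 ± 49.6 CPM (SD, n = 6), a ratio of 2.27 and a log2 change of 1.17 (SE 0.17, adjusted p = 0.00222). Leaving out any 1 library kept this between 1.06 and 1.25, with adjusted p up to 0.00867. The call was lost when all 18 libraries were fitted together (1.19, adjusted p = 0.536). Within the runs of header numbers the change was 0.87 in the first (adjusted p = 0.159) and 1.41 in the second (adjusted p = 0.0754). Schwann lineage markers moved with Matn2, summing to 2436 to 6110 CPM in nerve and 5957 to 10617 in neurofibroma, and their part in the result was not tested.

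In MPNST, Matn2 fell into separate levels. Libraries 1, 3, 4 and 5 held 315, 287, 218 and 230 CPM, within or just above the neurofibroma range, while libraries 2 and 6, those with salivary and pancreatic transcripts, held 11.8 and 24.9 CPM, below every nerve. The change was −0.21 against neurofibroma (SE 0.55, adjusted p = 0.781) and 0.95 against nerve (SE 0.56, adjusted p = 0.178). Against nerve it became 1.48 without libraries 2 and 6 (adjusted p = 0.00021) and 1.18 without library 6 alone (adjusted p = 0.0337). Schwann lineage markers were low in all MPNST, from 45.6 to 1064 CPM, and lowest in library 4, where Matn2 was 218 CPM.

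Acan, which encodes aggrecan, was low everywhere and lowest in MPNST. It ran from 0.561 CPM through a median of 1.04 to 2.03 in nerve and from 0.817 through 1.70 to 1.94 in neurofibroma. In MPNST the 6 libraries held 0, 2, 3, 0, 0 and 2 counts, 7 in all, or at most 0.211 CPM. A count of 0 in MPNST 1, 4 and 5 allows up to 0.171, 0.129 and 0.216 CPM, which is 3 counts in each of those libraries and covers counting error only. No MPNST overlapped the other groups. Over all genes tested, 16.2% of 16537 were lower without overlap against neurofibroma and 15.5% of 16384 against nerve. Acan fell from neurofibroma to MPNST by 4.04 on the log2 scale (SE 0.78, adjusted p = 0.0019), and leaving out any 1 library kept this between −4.65 and −3.70 (adjusted p up to 0.00538). It entered that test only through its counts in neurofibroma, and it did not pass the filter on low counts against nerve. Within the runs of header numbers described above it was −4.84 (adjusted p = 0.0376) and −3.52 (adjusted p = 0.0706). The change from nerve to neurofibroma was 0.44 (SE 0.31, adjusted p = 0.352).

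Comp, cartilage oligomeric matrix protein, which binds collagens in cartilage and tendon, was set in MPNST by a single library. It ran from 1.68 CPM through a median of 2.37 to 11.3 in nerve and from 1.16 through 2.48 to 8.95 in neurofibroma. In MPNST 1 to 6 it was 0.514, 0.127, 0.421, 15.1, 1.87 and 0.786 CPM. MPNST 4 was above every other library of the study, and libraries 1, 2, 3 and 6 were below all nerves and neurofibromas. No difference passed the test: −0.25 for neurofibroma against nerve (SE 0.58, adjusted p = 0.804), −0.14 for MPNST against neurofibroma (SE 0.93, adjusted p = 0.917) and −0.40 for MPNST against nerve (SE 0.93, adjusted p = 0.745). Without MPNST 4 the latter changes were −2.07 (adjusted p = 0.0234) and −2.34 (adjusted p = 0.0140). Leaving out nerve 3, which held the most Comp of the nerves, turned the change from nerve to neurofibroma to 0.34 (adjusted p = 0.6996) and that from nerve to MPNST to 0.16 (adjusted p = 0.905). Without neurofibroma 2 the change from neurofibroma to MPNST was 0.39 (adjusted p = 0.777). MPNST 4 also held the most Scx and Cdkn2a and 1452 CPM of the bone matrix gene Dmp1, with the osteoblast genes Sp7 and Bglap at 0 and Ibsp at 3.26 CPM.

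Fmod, which binds and shapes collagen fibrils, was dominated by nerve 6. The nerves held 6.27, 0.836, 10.4, 1.22, 3.64 and 85.3 CPM, and the neurofibromas ran from 1.10 through a median of 1.61 to 8.73. In MPNST 1 to 6 it was 6.90, 1.61, 24.9, 0.0429, 2.16 and 0.210 CPM. All groups overlapped. The change from nerve to neurofibroma was −2.63 (SE 1.04, adjusted p = 0.105) and −0.63 without nerve 6 (adjusted p = 0.544), while DESeq2 called it lower with all libraries (−2.62, adjusted p = 0.0482). Against MPNST it was 1.39 from neurofibroma (SE 1.12, adjusted p = 0.335), which turned to −0.04 without MPNST 3 and was 2.18 without neurofibroma 1 (adjusted p = 0.173). It was −1.21 from nerve (SE 1.36, adjusted p = 0.484), which turned to 0.74 without nerve 6 and was −2.71 without MPNST 3 (adjusted p = 0.140).

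Cilp was the gene whose rise in MPNST chose the list. It was 1.70 CPM through a median of 2.62 to 5.56 in nerve, and 1.71 through 2.95 to 6.12 in neurofibroma. In MPNST 1 to 6 it was 1163, 30.9, 848, 69.2, 304 and 8.70 CPM. Nerve and neurofibroma did not differ beyond their spread (log2 change 0.10, SE 0.34). Over all genes tested, 2.26% were higher in MPNST without overlap against neurofibroma and 2.88% against nerve. For Cilp, every MPNST was above both groups. The mean was 3.003 ± 1.34 in nerve, 3.25 ± 1.57 in neurofibroma and 404 ± 488 CPM in MPNST (SD, n = 6), a ratio of 135 to nerve and 124 to neurofibroma. The fitted changes were 7.17 (SE 1.13) and 7.09 (SE 1.13). Within MPNST the highest library held 134 times the lowest, and the lowest, MPNST 6, was 8.70 CPM beside 6.12 in the highest neurofibroma. Leaving out any 1 library kept the change against neurofibroma between 6.58 and 7.34, and without MPNST 2 and 6 it was 7.57. Within the runs of header numbers it was 6.75 and 7.53. Since the rise of Cilp in these same libraries chose it, these values describe the rise and are no support for it.

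Cilp2, its paralogue, did not follow it. Cilp2 was below 2 CPM in every library, with 0.140 to 1.83 in nerve, 0.102 to 0.748 for neurofibroma and 0 to 1.10 for MPNST. It did not pass the filter on low counts in any comparison, so its differences were not tested and only its levels are described. MPNST 1, which held the most Cilp, had 0.285 CPM of Cilp2.

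Cnmd was the gene whose peak in neurofibroma chose the list. It was 17.6, 6.25, 10.6, 8.11, 16.99 and 10.8 CPM in the nerves, and 38.9, 71.7, 48.4, 42.1, 32.2 and 49.97 CPM in the neurofibromas. The MPNST held 3, 3, 2, 3, 0 and 0 counts, 11 in all, or at most 0.171 CPM. Over all genes tested, 3.91% were higher without overlap in neurofibroma than in nerve. In MPNST 16.2% were lower without overlap against neurofibroma and 15.5% against nerve. For Cnmd the groups did not overlap in any comparison: neurofibroma was highest, nerve lay between and MPNST was near 0. The means were 11.7 ± 4.63, 47.2 ± 13.6 and 0.0945 ± 0.0754 CPM (SD, n = 6), so that neurofibroma was at 4.03 times nerve (log2 change 2.005, SE 0.26) and at 500 times MPNST (−8.48 for MPNST against neurofibroma, SE 0.69). Nerve was at 124 times MPNST (−6.44, SE 0.77). Leaving out any 1 library gave ranges of 1.85 to 2.15, −8.91 to −8.20 and −6.93 to −6.17. Since the pattern of Cnmd in these same libraries chose it, these ranges describe the pattern and are no support for it. The 0 counts of MPNST 5 and 6 allow up to 0.216 and 0.157 CPM.

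Tnmd, the paralogue of Cnmd and a marker of mature tendon, showed no such peak. It ran from 0.0594 CPM through a median of 0.427 to 0.917 in nerve and from 0.408 through 0.602 to 0.808 in neurofibroma, a log2 change of 0.43 (SE 0.47, adjusted p = 0.565). In MPNST it was 2.74, 0.0423, 10.8, 0, 0 and 0.0524 CPM. Libraries 1 and 3 were above every other library and the other 4 were below every neurofibroma. It did not pass the filter on low counts in either comparison with MPNST. MPNST 3, with the most Tnmd and the most Fmod, also held the skeletal muscle transcripts, and their part in these values was not tested.

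**Figure D2:**
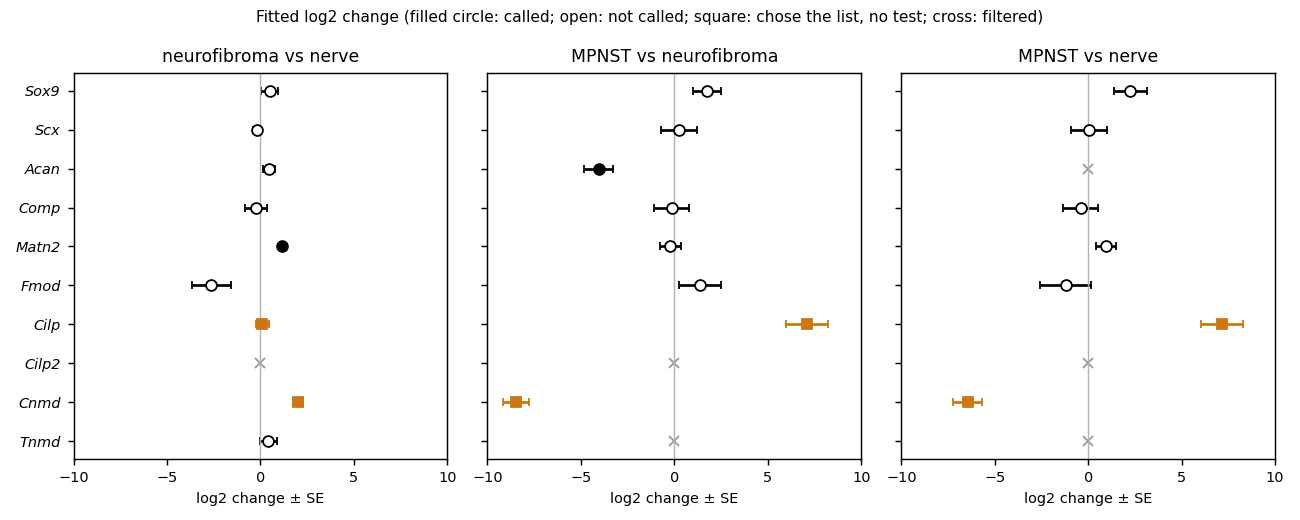
Fitted log2 change with its SE for each gene in the 3 comparisons (6 libraries against 6; log2 axis). Filled circles passed the test (Acan entered it only through its counts in neurofibroma), open circles did not, squares are Cilp and Cnmd, which chose the list and were not tested, and crosses drawn at 0 mark genes removed by the filter on low counts; Cilp is near 7 in both comparisons with MPNST, Cnmd is −8.48 and −6.44 there, and Matn2 and Acan are the filled circles.

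Counted over the 8 genes other than Cilp and Cnmd, few changes passed the test. From nerve to neurofibroma 7 passed the filter on low counts, of which Matn2 was called higher and 0 were called lower by edgeR, while over all 16464 genes 7.94% were called higher and 6.00% lower. At an unadjusted p below 0.05, 1 of the 7 was higher and 1 lower (Fmod); DESeq2 called 1 lower and limma-voom 0. From neurofibroma to MPNST 6 passed the filter, of which Acan was called lower and 0 were called higher. Acan passed the filter only through its counts in neurofibroma, so its call is a description of that drop and not a count to set against other genes. The shares over all genes were 25.3% of 16537 genes called higher and 16.8% lower. At an unadjusted p below 0.05, 1 of the 6 was higher (Sox9); DESeq2 and limma-voom called 0 higher. From nerve to MPNST 5 passed the filter and 0 were called in either direction, beside 27.6% of 16384 genes called higher and 18.4% lower. At an unadjusted p below 0.05, 1 of the 5 was higher (Sox9) and 0 were lower; DESeq2 called 1 higher and 1 lower, and limma-voom 2 higher and 1 lower. The 3 comparisons share libraries, so they are not independent of each other. Since the genes were chosen with results of these data known, these calls do not stand as independent evidence.

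The MPNST libraries each had their own mix of the 10 genes. MPNST 1 held the most Cilp and Matn2, MPNST 2 the most Sox9, MPNST 3 the most Fmod and Tnmd, MPNST 4 the most Scx and Comp, and MPNST 6 the most Cilp2. MPNST 6 held the least Sox9 and Cilp, and MPNST 4 the least Fmod. Across the 6 libraries, Cilp and Matn2 kept nearly the same order (Spearman correlation 0.94). The coefficient was 0.77 for Cilp and Fmod, 0.71 for Fmod and Matn2 and 0.70 for Fmod and Tnmd, while it was −0.78 for Sox9 and Cilp2 and −0.26 for Sox9 and Scx. These are 6 points that share depth and foreign tissue content and are given as a description.

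**Figure D3:**
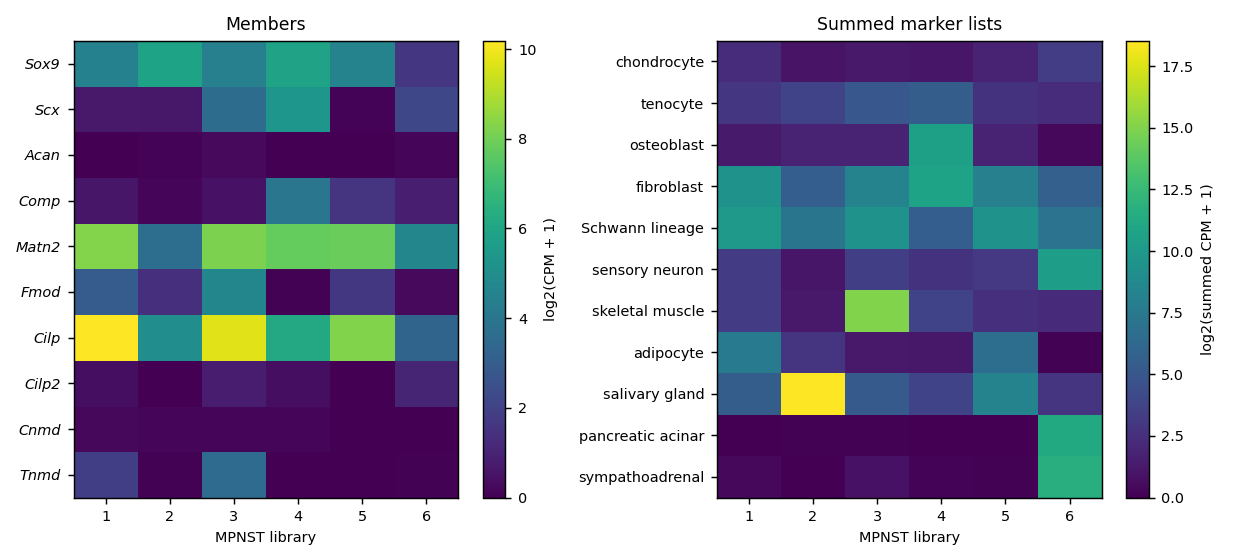
Levels in the 6 MPNST libraries, as log2(CPM + 1), of the 10 genes (left) and of summed marker lists for cell types (right, log2 of the summed CPM + 1). Cilp is brightest in libraries 1 and 3 and lowest in library 6; salivary markers stand out in library 2, skeletal muscle in library 3, the osteoblast list in library 4 (through Dmp1), and the pancreatic, sympathoadrenal and sensory neuron lists in library 6 (the last through Prph and Isl1).

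Over all 18 libraries, the genes whose log2(CPM + 1) followed Cilp most closely, among 16442 genes with a mean of at least 1 CPM, were Hoxb4 (Pearson's r 0.97), Mcl1 (0.96), Pbp2 (0.96), Plvap (0.96) and Plac8 (0.95). The correlations used TMM-scaled CPM, while the group means given here are CPM of the library total. Plvap, a protein of the openings in blood vessel endothelium, had group means of 62.8 in MPNST, 3.15 in neurofibroma and 4.72 in nerve. Hoxb4, a positional homeobox gene, had 11.9, 0.314 and 0.102 in the same order. The genes that followed Cnmd were Otop1 (0.98), Gm48697 (0.98), Fam178b (0.97), Cyp4f14 (0.97) and Sptbn5 (0.96). Otop1, a proton channel, had means of 7.26 in nerve, 30.8 in neurofibroma and, in MPNST, 0.206, and Sptbn5, a spectrin, had 80.8, 222 and 2.44. The 18 points share the differences between the 3 groups and the depth of each library, so these are a description with no p.

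The other genes of the 2 lineages and their signals were described with 8 lists holding 95 genes. From nerve to neurofibroma, 79 were tested, 16 rose and 3 fell. From neurofibroma to MPNST, 79 were tested, 29 rose and 17 fell, and from nerve to MPNST, 77 were tested, 33 rose and 16 fell. As shares of the genes tested these are 20.3% and 3.80%, 36.7% and 21.5%, and 42.9% and 20.8%, to be read beside the shares over all genes given above. The count of 16 moved with single libraries: it was 10 without nerve 4, 26 without nerve 6, and 9, 8 and 9 without neurofibroma 2, 4 and 6. The count of 3 was 6 without nerve 6 and 1 without any of nerve 4 or 5 or neurofibroma 1, 2 or 4, and in 1 fit of all 18 libraries none of the 95 was called between nerve and neurofibroma. The median log2 change of the 95 was 0.148, 0.998 and 1.14, beside −0.02, 0.22 and 0.22 over all genes tested. With library totals in place of TMM factors, the last of these medians over all genes were 0.06 and 0.04.

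In the cartilage matrix list, more genes rose than fell in neurofibroma, and more fell than rose in MPNST. In neurofibroma 38.5% rose and 7.69% fell, beside 7.94% and 6.00% over all genes. From neurofibroma to MPNST 0% rose and 36.4% fell, beside 25.3% and 16.8%. From nerve to MPNST 9.09% rose and 36.4% fell, beside 27.6% and 18.4%. Of 13 tested between nerve and neurofibroma, 5 rose and 1 fell (median log2 change 0.09), and Col27a1, a fibrillar collagen of cartilage, went from a mean of 17.2 to 51.6 CPM (1.58, SE 0.22, adjusted p = 0.00191). Of 11 tested between neurofibroma and MPNST, 4 fell and 7 were not called (median −1.06). Col9a2, a chain of type IX collagen, went from 39.3 to 1.25 CPM (−4.76, SE 0.72, adjusted p = 0.000456). Against nerve, 1 rose and 4 fell in MPNST (median −0.80), with Col27a1 at 3.24 (SE 0.80, adjusted p = 0.0063) and Hapln1 at −4.71 (SE 0.73, adjusted p = 0.000447). Col2a1 and Hapln1, which fell against both groups, passed the filter on low counts only through nerve or neurofibroma. The counts of genes that fell in MPNST are therefore a description.

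Of 9 tested cartilage regulators, 1 rose in neurofibroma, namely Runx2, a factor of bone and growing cartilage (0.74, SE 0.17, adjusted p = 0.0152). In MPNST 3 rose and 2 fell against each of the other groups. These are 33.3% and 22.2%, near the shares over all genes. Those shares were 25.3% and 16.8% against neurofibroma and 27.6% and 18.4% against nerve. The 1 that rose in neurofibroma is 11.1%, beside 7.94%. Trps1, a repressor of chondrocyte maturation, went from 14.3 CPM in neurofibroma to 91.4 in MPNST (2.74, SE 0.50, adjusted p = 0.00132), and Fgf18, a growth factor for cartilage, from 5.67 to 0.264 CPM (−4.08, SE 0.84, adjusted p = 0.00281). Fgf18 entered this test only through its counts in neurofibroma, so its call describes that drop.

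In the tendon and ligament list more genes rose than fell in every comparison. Of 12 tested, 6 rose and 1 fell in neurofibroma (median 1.14), 7 rose and 1 fell from neurofibroma to MPNST (median 1.99), and 10 rose and 1 fell from nerve to MPNST (median 3.30). The shares that rose were 50%, 58.3% and 83.3%, beside 7.94%, 25.3% and 27.6% over all genes. The share that fell was 8.33% each time, beside 6.00%, 16.8% and 18.4%. The genes that rose in neurofibroma were fibrillar and fibril-associated collagens (Col1a1, Col1a2, Col3a1, Col5a1, Col12a1 and Col14a1, named after their values were seen), which fibroblasts of many tissues also make. Leaving out 1 library could end the call of Col1a1 (nerve 4 or 5 or neurofibroma 2, 4 or 6), Col14a1 (nerve 4 or neurofibroma 1, 2, 4 or 6) and Col12a1 (neurofibroma 4), with adjusted p up to 0.0710. Col3a1 went from a mean of 59.8 CPM in nerve to 247 in neurofibroma (2.04, SE 0.44, adjusted p = 0.0117) and 2271 in MPNST. Tnc, the adhesion modulator tenascin, was 1.55 to 4.87 CPM in nerve and 2.57 to 7.76 in neurofibroma, but 73.1 to 670 in MPNST, with no overlap. Over all genes tested, 2.26% were higher in MPNST without overlap against neurofibroma and 2.88% against nerve. The change of Tnc was 6.31 against neurofibroma (SE 0.66, adjusted p = 3.88e-05). Mkx fell in neurofibroma (−0.52, SE 0.15, adjusted p = 0.0390), a call lost without any of nerve 4 or 5 or neurofibroma 1, 2, 3 or 4. Tppp3, a tubulin-binding protein that marks tendon sheath cells, had means of 1015 CPM in nerve and 1024 in neurofibroma, and of 56.1 in MPNST (−4.07 against neurofibroma, SE 0.58, adjusted p = 0.000306). Markers of fibroblasts moved with the list, with sums of 62.2 to 93.0 CPM for nerve, 71.6 to 125 for neurofibroma and 44.8 to 1693 for MPNST. Their part in it was not tested.

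Small leucine-rich proteoglycans other than Fmod had 3 of 10 higher in neurofibroma, 2 of 9 higher and 1 lower from neurofibroma to MPNST, and 3 of 8 higher and 1 lower from nerve to MPNST. The shares higher were 30%, 22.2% and 37.5%, beside 7.94%, 25.3% and 27.6% over all genes. In MPNST the shares lower were 11.1% and 12.5%, beside 16.8% and 18.4%. The MPNST counts are thus near the shares over all genes. Lum, lumican, a collagen-binding proteoglycan, rose in neurofibroma (2.03, SE 0.52, adjusted p = 0.0242; lost without neurofibroma 2, 4 or 6). Aspn, asporin, rose from 3.52 CPM in neurofibroma to 54.8 in MPNST (4.06, SE 0.68, adjusted p = 0.00082), while Ogn, osteoglycin, fell between the same groups from 661 to 22.0 CPM (−4.66, SE 0.85, adjusted p = 0.00134).

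The relatives of Acan, Matn2 and Comp went both ways in MPNST. Of 12 tested, 2 rose in neurofibroma, 4 rose and 5 fell from neurofibroma to MPNST, and 5 rose and 5 fell from nerve to MPNST. The shares that rose were 16.7%, 33.3% and 41.7%, beside 7.94%, 25.3% and 27.6% over all genes. In MPNST 41.7% fell against each group, beside 16.8% and 18.4%. Matn4, another matrilin, rose with Matn2 in neurofibroma from 14.5 to 29.2 CPM (1.002, SE 0.19, adjusted p = 0.00629). Thbs3, a thrombospondin of the family of Comp, rose from 5.46 CPM in neurofibroma to 37.3 in MPNST (2.93, SE 0.58, adjusted p = 0.00209). Bcan, brevican, an aggrecan relative of nervous tissue, fell between the same groups from 81.0 to 0.360 CPM (−7.71, SE 0.71, adjusted p = 1.66e-05). Bcan entered this test only through its counts in neurofibroma, so its call describes that drop.

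**Figure D4:**
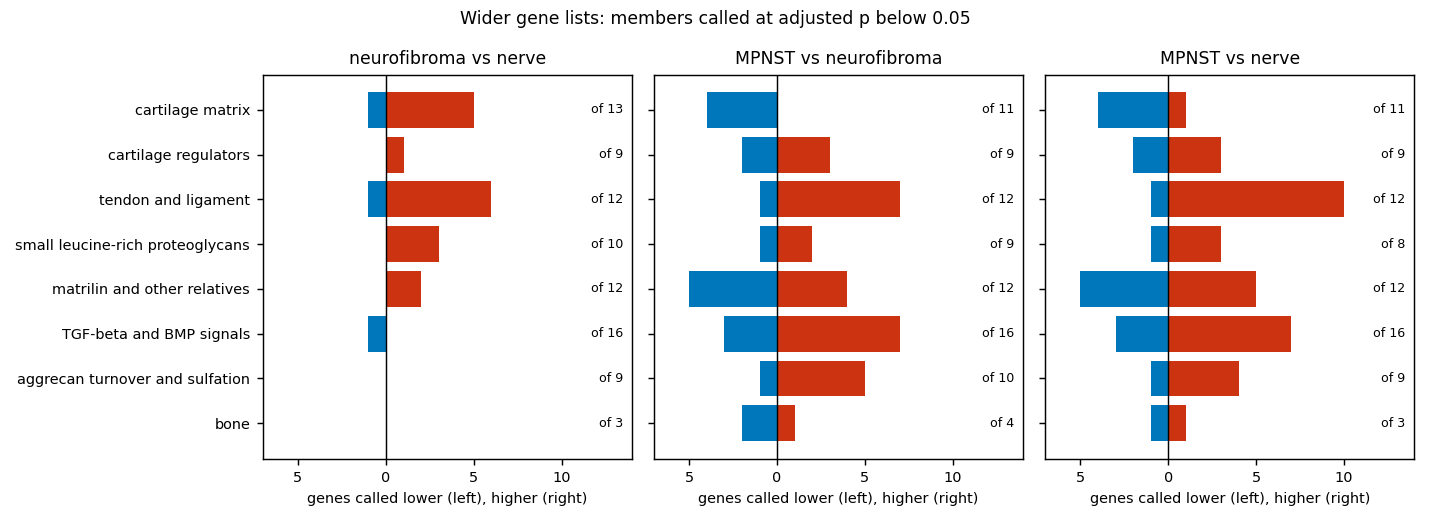
Number of genes called higher (red, right) and lower (blue, left) at an adjusted p below 0.05 in 8 lists of related genes, for the 3 comparisons; the number tested stands at the right of each row. Tendon and ligament genes have 6, 7 and 10 of 12 higher, and cartilage matrix genes have 5 of 13 higher in neurofibroma but 4 of 11 lower in both comparisons with MPNST. Col2a1 and Hapln1, among those lower, passed the filter on low counts only through nerve or neurofibroma. Over all genes, 7.94%, 25.3% and 27.6% were called higher and 6.00%, 16.8% and 18.4% lower.

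TGF-beta and BMP signals, which drive both lineages, had 1 of 16 lower in neurofibroma, and 7 higher and 3 lower of 16 in MPNST against each of the other groups. The 6.25% lower in neurofibroma stands beside 6.00% over all genes. In MPNST 43.75% were higher, beside 25.3% and 27.6%, and 18.75% lower, near the 16.8% and 18.4% over all genes. Nog, a BMP inhibitor, fell in neurofibroma from 4.72 to 2.58 CPM (−0.87, SE 0.19, adjusted p = 0.0137). Tgfb1 rose from 9.52 CPM in neurofibroma to 49.1 in MPNST (2.44, SE 0.43, adjusted p = 0.00117), and Bmp7 fell between the same groups from 38.5 to 2.31 CPM (−3.87, SE 0.62, adjusted p = 0.000622). Macrophage markers summed to 20.9 to 110 CPM for the nerves, 69.0 to 161 for the neurofibromas and 75.9 to 1387 for the MPNST. In neurofibroma 0 of the 16 signal genes were called higher (median log2 change −0.07). The part of macrophages in the values of these genes was not tested. Of 10 genes of aggrecan turnover and sulfation, 5 rose and 1 fell from neurofibroma to MPNST, which is 50% and 10%, beside 25.3% and 16.8% over all genes. Adamts1 rose (1.74, SE 0.48, adjusted p = 0.0131) and Adamts5, the main aggrecanase of mouse cartilage, fell from 125 to 41.5 CPM (−1.50, SE 0.28, adjusted p = 0.00169).

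In the bone list, Dmp1 was called higher in MPNST (7.06 against neurofibroma, SE 2.18, adjusted p = 0.0213), but the value came from MPNST 4: without it the change was −0.12 (adjusted p = 0.867). The median of Dmp1 in MPNST was 1.87 CPM, beside 1.95 in neurofibroma. Ibsp, bone sialoprotein, was called lower (−3.81, SE 1.25, adjusted p = 0.0284), at 5.34 to 10.2 CPM in neurofibroma and 0 to 3.26 in MPNST. That call was lost without neurofibroma 5 or MPNST 3 (adjusted p up to 0.0506), and the change was −7.78 without MPNST 4. Ibsp entered the test only through its counts in neurofibroma.

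Without MPNST 2 and 6, 10 of 12 tendon and ligament genes were higher than in nerve and 2 lower (median 3.72), and 3 of 12 cartilage matrix genes were lower and 1 higher (median −0.38). Against neurofibroma, 9 of 12 tendon and ligament genes were then higher and 2 lower, and cartilage matrix had 2 of 11 higher and 4 lower. The medians over all genes without these libraries were 0.12 against nerve and 0.07 against neurofibroma.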

How the data were processed

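For 18 samples the authors deposited gene-level estimated counts, many of them not whole numbers. The submitters' processing notes name Salmon 1.4.0, DESeq2, FastQC and GRCm39, a mouse build. For Salmon's settings and the annotation release, the sources used here give nothing. Column-purified RNA went into stranded poly(A) libraries, per the labels' protocols. All 18 columns were matched to a sample by name and 0 had no sample. Counts were rounded to whole numbers and printed as CPM of the library total. Salmon divides reads shared by near-identical transcripts, so levels of paralogues can be uncertain.

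Each comparison was fitted with edgeR 4.0.16 (R 4.3.3) on the libraries of both groups: filterByExpr, TMM factors, quasi-likelihood test, two-sided, Benjamini-Hochberg adjustment over all genes tested, called below 0.05. The test was checked on simulated counts with the same spread for all genes and groups, and with changes set only in genes of higher level. That check does not cover the wider spread of the MPNST or genes of low counts. DESeq2 1.42.0, limma 3.58.1 (voom with sample quality weights), other scalings, no filter, a fit of all 18 libraries and each library left out were alternatives. P-values measure the spread between these samples, which the labels do not further describe for nerve and neurofibroma.

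The members and lists were chosen with earlier results of these data known. Named genes are the 10 members, the chondrocyte and tenocyte markers, in each wider list the called gene with the smallest adjusted p in each direction (where the higher group's mean was 1 CPM or more), and the 5 genes most like Cilp and Cnmd over 18 samples.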

Additional observations from a re-analysis of the deposited data

Results flagged for a closer look

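In 9 of the 30 sets of 6 values (10 genes in 3 groups), the highest library stood apart from the rest by Dixon's criterion. Its chance rate of about 1 in 20 sets holds for normally distributed values. The CPM were not transformed here, so the 9 flags are a description and cannot be set against that rate. The sets of Cilp and Cnmd are included to describe the spread within a group and are no test of these genes. MPNST 4 stood apart for Comp (15.1 CPM, the next library 1.87) and for Scx (39.9 CPM, the next 11.02), and MPNST 3 for Fmod (24.9 CPM, the next 6.90) and Tnmd (10.8 CPM, the next 2.74). Nerve 6 stood apart for Sox9 (32.3 CPM, the next 10.2) and Fmod (85.3 CPM, the next 10.4). The remaining values were Comp in nerve 3 (11.3 CPM, the next 5.06), Cilp in nerve 2 (5.56 CPM, the next 3.15) and Fmod in neurofibroma 1 (8.73 CPM, the next 2.42). MPNST 3, nerve 3 and neurofibroma 1 held skeletal muscle transcripts, neurofibroma 1 adipocyte transcripts, MPNST 4 much Dmp1 and Cdkn2a, and nerve 6 Th, and their part in these values was not tested.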

How the results depend on the processing

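No paired analysis was possible because the labels carry no replicate numbers that groups share. Alternatives that leave out several libraries together or keep 1 run of header numbers were chosen after seeing the data. The cause of the shifts below was not tested. A stricter threshold can only leave fewer calls, whereas leaving out libraries moved the counts both ways.

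Counts of calls between nerve and neurofibroma were the least steady. Against 2295 genes called over all genes, there were 1438 with no filter on low counts, 3549 with DESeq2, 4026 with limma-voom, 2 in the fit of all 18 libraries, 520 at an adjusted p below 0.01, and 0 and 5 within the runs; leaving out 1 library gave 1147 to 3817. Of the wider lists, 16 higher became 27 with limma-voom, 0 in the fit of 18, 2 below 0.01 and 0 and 0 within the runs (8 to 26 leaving out 1 library), and 3 lower became 1 with no filter, 7 with limma-voom, 0 in the fit of 18, 0 below 0.01, 5 without nerve 6 and neurofibroma 1, and 0 and 0 within the runs (1 to 6 leaving out 1). Of the 8 members, 1 higher became 2 with limma-voom, 0 in the fit of 18, 2 without nerve 6 and neurofibroma 1 and 0 within either run (1 to 2 leaving out 1), and 0 lower became 1 with DESeq2.

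For MPNST against neurofibroma, 6948 genes became 4063 below 0.01, 11247 without MPNST 2, 3 and 6, and 4375 and 1473 within the runs (5899 to 9123 leaving out 1). Of the wider lists, 29 higher became 15 below 0.01 and 12 and 3 within the runs (24 to 37), and 17 lower became 6 within the second run (15 to 18). Of the members, 0 higher became 1 without MPNST 2 and 6, 1 without MPNST 2, 3 and 6, and 1 without neurofibroma 1 and MPNST 2 and 6 (0 to 1), and 1 lower became 2 with limma-voom and 0 within the second run (1 to 2).

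For MPNST against nerve, 7534 genes became 4633 below 0.01 and 1136 within the second run (6508 to 9447). Of the wider lists, 33 higher became 18 below 0.01 and 20 and 3 within the runs (23 to 34), and 16 lower became 6 within the second run (15 to 18). Of the members, 0 higher became 1 with DESeq2, 2 with limma-voom, 1 in the fit of 18, 2 without MPNST 2 and 6, 1 without MPNST 2, 3 and 6, 2 without nerve 6 and MPNST 2 and 6 and 1 within the first run (0 to 2), and 0 lower became 1 with no filter, DESeq2, limma-voom, the fit of 18 and each of the 3 exclusions of several libraries (0 to 2).

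The log2 change of Scx reversed with limma-voom, to −3.03 against neurofibroma and −3.19 against nerve.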
